A study of Homo sapiens with 36 samples.

Results

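The 9 genes described here encode the proteins that carry a signal from the T cell antigen receptor to its first branch points, and they were chosen by symbol as LCK, FYN, ZAP70, LAT, LCP2, RASGRP1, THEMIS, SKAP1 and SH2D1A. Each symbol matched 1 of the 60628 rows of the deposited gene table, and all 9 had enough counts to be tested. Messenger RNA was sequenced from 7 human T cell neoplasm lines grown in culture. In each line, libraries from a scrambled hairpin (control, genotype WT in the labels) were compared with libraries from hairpins that target GATA3 (shGATA3, labelled GATA-3 knock down), a zinc finger transcription factor of the T lineage. H9 (2 control and 3 knockdown libraries), MyLa (named MylaCD4+ in the labels, 3 and 3) and Mac1 (2 and 2) are labelled as cutaneous T lymphocytes and are called cutaneous T cell lymphoma (CTCL) lines below. THP6 (3 and 2), MOLT4 (2 and 2), CCRF-CEM (3 and 3) and SUP-T1 (3 and 3) are labelled as acute lymphoblastic leukaemia and are called T-ALL lines. In all there were 18 control and 18 knockdown libraries. Each line descends from 1 tumour, and neither the hairpin of each replicate nor whether replicates came from separate cultures is stated. The p-values below thus reflect scatter among these libraries, possibly technical.

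When the antigen receptor is engaged, the Src family kinases LCK and FYN phosphorylate the CD3 and zeta chains, and the Syk family kinase ZAP70 docks there and is activated. ZAP70 phosphorylates the membrane adaptor LAT and the cytosolic adaptor SLP-76, the product of LCP2, which together assemble the complex that raises calcium and activates Ras. RASGRP1 is the diacylglycerol-dependent exchange factor that loads Ras, THEMIS is a thymocyte protein that tunes receptor signal strength, SKAP1 links the receptor to integrin adhesion, and SH2D1A encodes SAP, the adaptor that joins SLAM family receptors to FYN.

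RefSeq (GRCh38.p14) gave 17 promoter windows, from 250 bases before to 50 bases after an annotated start, for 8 of the 9 genes, all but SKAP1. They were searched on both strands for GATA words, which read A or T, then GATA, then A or G. A word was present in 5 of the 17 windows, in 3 genes (LCK, FYN and THEMIS), and in 25.0% of all 35116 windows in the RefSeq table. The RUNX word TGTGGT was present in 4 of the 17 windows and in 13.1% of all windows. The 250 bases before the start are printed below in the direction of transcription. LCK is shown for its 2 starts, which both held a GATA word. THEMIS, called in THP6, is shown only for the start whose window held one. Its other windows, at 127855139 to 127855438 and 127901009 to 127901308, held 0. RASGRP1 and SH2D1A, called in MOLT4 and SUP-T1, are shown as genes whose windows held no such word. FYN is not printed. Capitals mark the GATA words. In the upstream LCK window the word lies 228 bases before the start, in the downstream one 200 bases before it and in THEMIS 31 bases before it. A match is a stretch of letters and not a measured binding site, and start usage was not measured here.
LCK, upstream start, chr1:32251015-32251264, plus strand: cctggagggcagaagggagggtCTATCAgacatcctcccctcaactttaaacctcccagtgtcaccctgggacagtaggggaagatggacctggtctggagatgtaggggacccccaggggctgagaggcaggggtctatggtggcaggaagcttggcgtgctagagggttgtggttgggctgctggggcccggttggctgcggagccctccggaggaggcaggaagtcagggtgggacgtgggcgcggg
LCK, downstream start, chr1:32273871-32274120, plus strand: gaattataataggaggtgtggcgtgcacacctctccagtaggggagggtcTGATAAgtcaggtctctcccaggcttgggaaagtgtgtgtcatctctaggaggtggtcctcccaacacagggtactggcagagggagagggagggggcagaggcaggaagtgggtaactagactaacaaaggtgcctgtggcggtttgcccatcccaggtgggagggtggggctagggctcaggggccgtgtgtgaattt
THEMIS, chr6:127918596-127918845, minus strand: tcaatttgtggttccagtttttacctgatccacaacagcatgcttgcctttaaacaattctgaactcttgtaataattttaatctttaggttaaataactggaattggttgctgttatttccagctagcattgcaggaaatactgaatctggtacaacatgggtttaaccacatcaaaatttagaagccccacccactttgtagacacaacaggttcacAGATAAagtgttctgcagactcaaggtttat
RASGRP1, chr15:38564815-38565064, minus strand: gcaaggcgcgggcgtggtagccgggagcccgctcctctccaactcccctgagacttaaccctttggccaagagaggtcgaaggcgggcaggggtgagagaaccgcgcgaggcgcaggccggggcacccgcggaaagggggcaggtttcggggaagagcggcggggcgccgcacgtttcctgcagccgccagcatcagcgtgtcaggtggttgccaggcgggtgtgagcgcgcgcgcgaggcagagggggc
SH2D1A, chrX:124346313-124346562, plus strand: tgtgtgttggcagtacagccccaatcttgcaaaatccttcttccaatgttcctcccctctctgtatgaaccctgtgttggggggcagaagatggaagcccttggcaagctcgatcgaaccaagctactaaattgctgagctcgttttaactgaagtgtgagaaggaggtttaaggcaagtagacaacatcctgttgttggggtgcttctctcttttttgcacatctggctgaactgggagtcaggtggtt

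Levels are given as CPM, counts relative to the scaled library total, and library totals ran from 18.62 M to 50.63 M expected counts. In 6 lines the GATA3 levels of the arms did not overlap and the knockdown was lower, with log2 fold changes from -1.45 in MOLT4 to -0.72 in MyLa. In SUP-T1 the libraries labelled knockdown held 77.2 to 86.6 CPM of GATA3 and those labelled control 23.6 to 24.4 CPM, so the SUP-T1 libraries go against their labels and every SUP-T1 direction below is that of the labels. The THP6 knockdown libraries stood apart from each other: without THP6 knockdown 2 the number of genes called in THP6 fell from 1564 to 74, and without THP6 knockdown 1 it rose to 7900. The labelled cell type was checked with 9 T cell markers, all of which had counts in the control libraries of every line but Mac1, where CD3D, CD3E, CD3G and CD7 were at 0. Sums of 5 B cell markers were 189 to 213 CPM in H9 controls and 242 to 248.8 CPM after knockdown, and in CCRF-CEM 27.2 to 28.8 CPM and 17.4 to 19.0 CPM. Sums of 5 fibroblast markers were 98.2 to 109 CPM in MyLa controls and 101 to 111 CPM after knockdown. The part of these sums in the results below was not tested. In bulk RNA, fewer cells of a kind and less RNA per cell cannot be told apart.

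**Figure D1:**
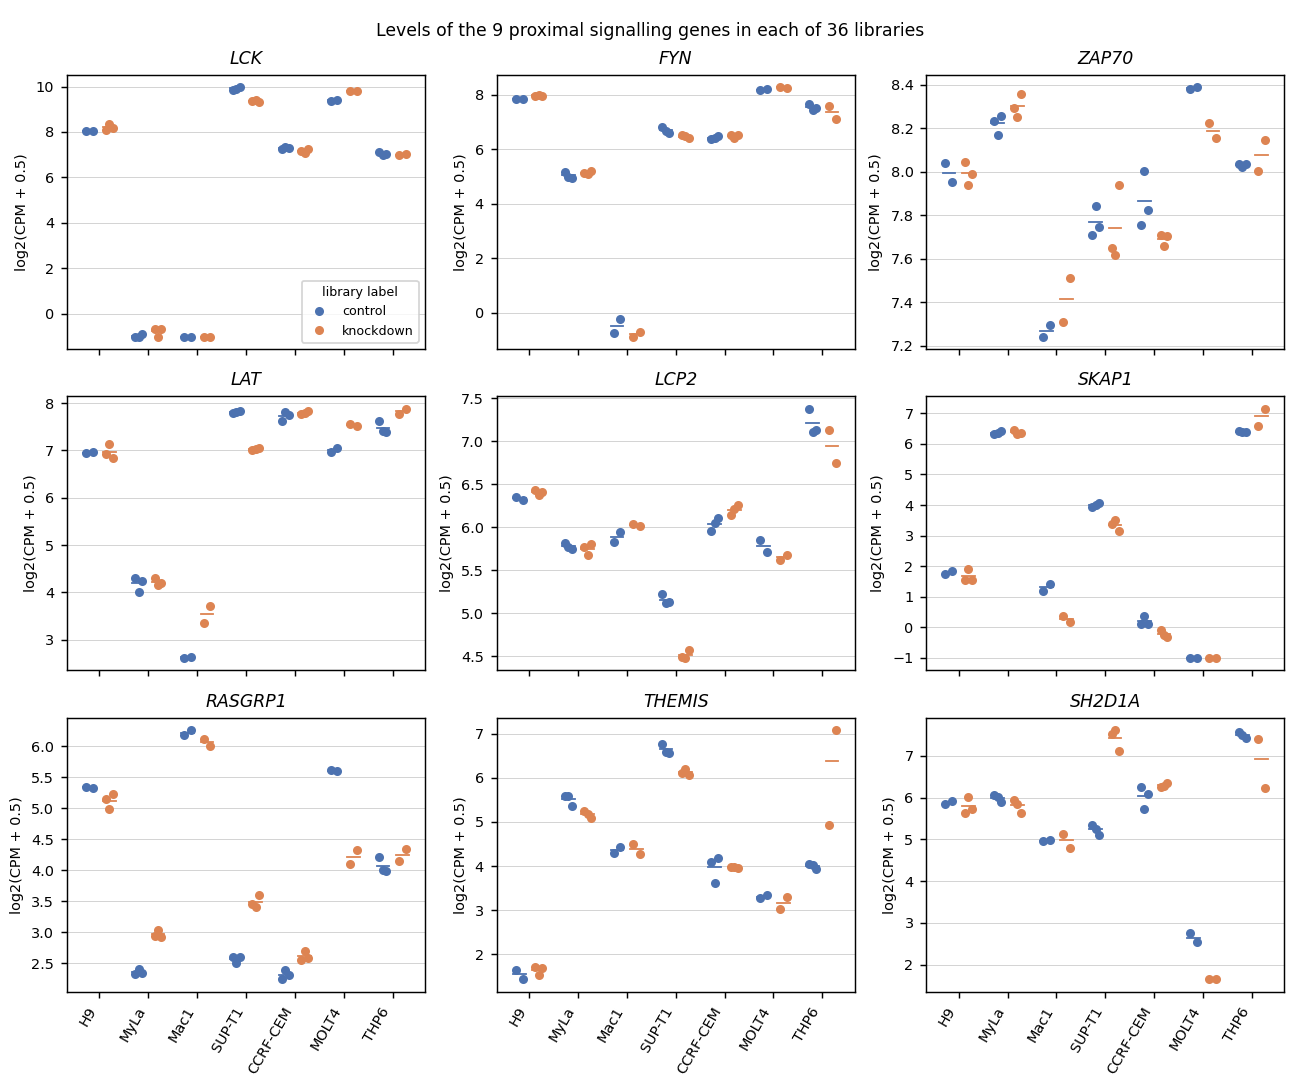
Each point is 1 library, plotted as log2(CPM + 0.5) on a vertical axis that differs between the 9 panels, and short bars mark the group means of control (blue) and knockdown (orange) libraries in the 7 lines. LCK lies at the floor in MyLa and Mac1 and SKAP1 in MOLT4, while ZAP70 stays between 151 and 335 CPM in the control libraries of all 7 lines.

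LCK (ENSG00000182866, chromosome 1, 32251239 to 32286165, plus strand, GRCh38), the coreceptor-bound kinase that starts the cascade, ranged from the most abundant of the 9 genes to undetected. Control libraries held 933, 961 and 1008 CPM in SUP-T1, 658 and 681 in MOLT4, 265 and 267 in H9, 152, 159 and 158 in CCRF-CEM, and 137, 128 and 130 in THP6. No pair of neighbours in this order overlapped. All 4 Mac1 libraries had 0 LCK counts, which allows up to 3 counts per library or 0.0730 to 0.120 CPM, and the 6 MyLa libraries had 1 count in the controls and 6 in the knockdown libraries. LCK transcripts were therefore at or below the floor of detection in 2 of the 3 CTCL lines.

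On knockdown, LCK rose in MOLT4. Its knockdown libraries held 905 and 892 CPM against 658 and 681 CPM in controls, a log2 fold change of 0.42 (SE 0.098, adjusted p = 0.00237). The SUP-T1 libraries labelled knockdown held 654, 683 and 641 CPM, all below the controls (log2 difference -0.55, SE 0.0801, adjusted p = 1.06e-05). In H9, CCRF-CEM and THP6 the log2 fold changes were 0.16 (SE 0.0902), -0.14 (SE 0.081) and -0.05 (SE 0.0907) and none passed the test. No fold is given for MyLa and Mac1, where both arms lie at the floor.

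FYN (ENSG00000010810, chromosome 6, 111660332 to 111873452, minus strand), the second Src family kinase of the receptor, passed the edgeR test of all libraries together in no line. Its control levels were 287 and 295 CPM in MOLT4, 232 and 230 in H9, 201, 176 and 185 in THP6, 112, 101 and 97.5 in SUP-T1, 83.6, 84.8 and 89.1 in CCRF-CEM and 35.9, 31.4 and 30.3 in MyLa. Neighbouring lines in this order did not overlap. In Mac1 the control libraries held 0.101 and 0.348 CPM of FYN, 13 counts in all, and the knockdown libraries 5. Mac1, without LCK counts, thus also had the lowest FYN level. Outside Mac1 the log2 fold changes of FYN ran from -0.24 in SUP-T1 (SE 0.0932, adjusted p = 0.0872) to 0.13 in H9 (SE 0.103, adjusted p = 0.815). FYN in SUP-T1 was called in 3 of 13 alternatives, with DESeq2 (adjusted p = 0.0329), with the replicate block (0.032) and with the line fitted alone (0.0447).

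ZAP70 (ENSG00000115085, chromosome 2, 97713560 to 97739862, plus strand) had the most even levels of the 9 genes. The highest group mean, 334 CPM in MOLT4 controls, was 2.17 times the lowest, 154 CPM in Mac1 controls. THP6, H9, CCRF-CEM and SUP-T1 lay between 209 and 263 CPM per library, and neighbours among these 4 overlapped. ZAP70 passed the same edgeR test in no line. The estimates nearest the threshold were MOLT4, at 298 and 284 CPM after knockdown against 333 and 335 (log2 fold change -0.20, SE 0.0897, adjusted p = 0.133, and 0.0288 with MOLT4 fitted alone), and CCRF-CEM (log2 fold change -0.17, SE 0.0736, adjusted p = 0.171). SYK, the other kinase of its family, was at 0 counts in control libraries of 5 lines and at 0.229 CPM in SUP-T1 and 0.018 CPM in MOLT4.

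The leading Src family gene was not the same in every line, with levels compared per kilobase of exon. LCK led in H9 (79.7 CPM per kb), SUP-T1 (289.7), CCRF-CEM (46.9), MOLT4 (200.5) and THP6 (39.4). In Mac1 the leading gene was LYN, better known from B and myeloid cells, at 46.8 CPM per kb, and in MyLa it was BLK at 25.0. BLK was picked out after its values were seen. BLK held 141 and 146 CPM in Mac1 controls, 132, 122 and 128 in MyLa, 79.1 and 79.2 in H9 and 66.3, 58.8 and 59.9 in THP6, and at most 0.348 CPM in any control library of SUP-T1, CCRF-CEM and MOLT4. LYN held 277 and 301 CPM in Mac1 controls, 10.5, 10.2 and 8.42 in MyLa and under 1 CPM in the control libraries of the other 5 lines. YES1, present in every line, ran from 6.07 CPM in Mac1 to 19.4 CPM in SUP-T1. SRC had control means of 89.6 CPM in MOLT4 and 28.0 CPM in SUP-T1 and at most 2.32 CPM in any control library of the other lines.

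**Figure D2:**
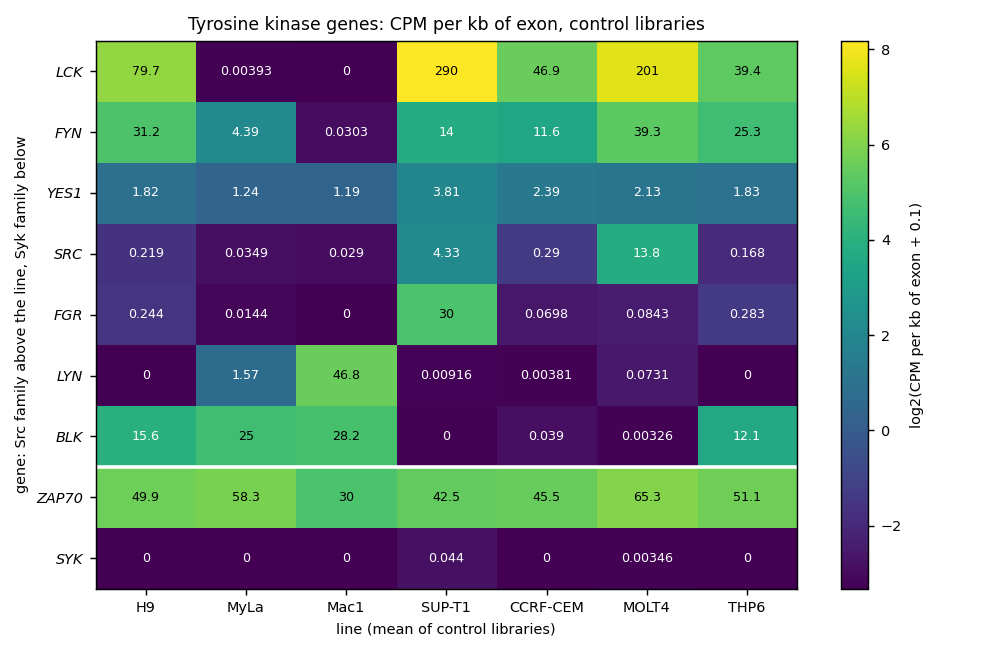
Colour and printed numbers give the mean level of 7 Src family genes and, below the white line, the 2 Syk family genes in control libraries of each line, in CPM per kb of exon (colour on a log2 scale). LCK holds the highest Src family value in 5 lines, LYN in Mac1 (46.8) and BLK in MyLa (25.0), while ZAP70 lies between 30.0 and 65.3 in every line.

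LYN and FGR differed between arms in the line where each was most abundant. LYN rose in Mac1 from 277 and 301 CPM to 407 and 386 CPM (log2 fold change 0.45, SE 0.134, adjusted p = 0.0374). FGR was at 103, 105 and 106 CPM in SUP-T1 controls and at 39.4, 37.1 and 40.8 CPM in those labelled knockdown. The log2 difference, -1.41 (SE 0.136, adjusted p = 1.86e-08), had the sign of that of LCK. FGR and LYN were also higher in MOLT4 knockdown libraries, from 0.293 to 1.67 CPM and from 0.452 to 1.43 CPM. FGR was called higher in Mac1 too, where controls had 0 counts and the knockdown libraries 5 and 3.

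LAT (ENSG00000213658, chromosome 16, 28984826 to 28990783, plus strand), the membrane scaffold on which the signalling complex forms, was called in 4 lines, as many as RASGRP1 and more than any other of the 9 genes. In Mac1 it rose from 5.62 and 5.71 CPM to 9.69 and 12.5 CPM (log2 fold change 0.96, SE 0.123, adjusted p = 4.71e-06). In MOLT4 it rose from 124 and 132 CPM to 189 and 182 CPM (log2 fold change 0.54, SE 0.101, adjusted p = 0.000228). The arms were separate in both lines. THP6 went from 197, 169 and 167 CPM to 218 and 236 CPM (log2 fold change 0.35, SE 0.0907, adjusted p = 0.0165). This last call was lost without knockdown 2 (adjusted p = 0.416), control 2 (0.0785) or control 3 (0.0817), and in THP6 fitted alone (0.753). In SUP-T1 the libraries labelled knockdown held 128, 130 and 131 CPM against 220, 226 and 228 CPM (log2 difference -0.79, SE 0.0823, adjusted p = 2.82e-08).

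LAT thus lay opposite to GATA3 itself in the 4 lines where it was called, higher where GATA3 was lower and lower in the SUP-T1 libraries with more GATA3. In H9, MyLa and CCRF-CEM its log2 fold changes were 0.02 (SE 0.0921), 0.03 (SE 0.0913) and 0.07 (SE 0.0817), within their standard errors of 0. Control levels ran from 225 CPM in SUP-T1 and 212 CPM in CCRF-CEM, which overlapped, through 178 in THP6, 128 in MOLT4 and 123 in H9 to 17.8 CPM in MyLa and 5.66 CPM in Mac1. The 2 lines at the bottom were those with LCK at the floor. Exons of LAT share 2112 bases with AC109460.3 on the same strand and 454 bases with AC109460.4 on the other, and reads there could be split between the genes. LAT2, the adaptor used by B and myeloid cells, was highest in Mac1, at 34.0 CPM, and rose there to 49.6 CPM (log2 fold change 0.55, adjusted p = 0.0153).

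LCP2 (ENSG00000043462, chromosome 5, 170246237 to 170298227, minus strand), the SLP-76 gene, was present in every line. Control means ran from 147 CPM in THP6, 80.2 in H9 and 65.2 in CCRF-CEM to 58.7 in Mac1, 54.6 in MOLT4 and 54.3 in MyLa, the last 3 overlapping their neighbours, and to 35.2 CPM in SUP-T1. In the edgeR fit of all libraries the single call was in SUP-T1, at 36.8, 34.3 and 34.6 CPM in controls and 22.0, 21.8 and 23.4 CPM in the libraries labelled knockdown (log2 difference -0.65, SE 0.0811, adjusted p = 6.26e-07). The estimate in THP6 was -0.26 (SE 0.086, adjusted p = 0.0611), with 166, 137 and 139 CPM in controls and 139 and 107 CPM after knockdown. It was called lower in 7 of 12 alternatives, among them DESeq2 (adjusted p = 0.0365), limma-voom (0.0411) and the replicate block (0.0453), and without knockdown 2 the adjusted p was 0.861. BLNK, the B cell counterpart of SLP-76, was at most 0.0724 CPM in any group mean. Exons of LCP2 share 123 bases with C5orf58 on the other strand.

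SKAP1 (ENSG00000141293, chromosome 17, 48133440 to 48430275, minus strand), the adhesion adaptor, ranged from abundant to undetected. Control means were 83.7 CPM in THP6 and 81.8 in MyLa, which overlapped, then 15.4 in SUP-T1, 2.96 in H9, 1.99 in Mac1 and 0.655 in CCRF-CEM. All 4 MOLT4 libraries had 0 counts, which allows up to 3 counts per library or 0.0992 to 0.108 CPM. SKAP1 fell in Mac1 from 1.78 and 2.19 CPM to 0.803 and 0.642 CPM (log2 fold change -1.42, SE 0.245, adjusted p = 0.00032), on 116 and 49 counts. The SUP-T1 libraries labelled knockdown were lower too, at 9.96, 10.8 and 8.47 CPM against 14.7, 15.6 and 16.1 CPM (log2 difference -0.66, SE 0.117, adjusted p = 0.000161). In THP6 it was higher after knockdown, at 94.8 and 142 CPM against 84.6, 83.2 and 83.2 CPM (log2 fold change 0.50, SE 0.116, adjusted p = 0.00855), and without knockdown 2 the value was 0.18 (SE 0.101, adjusted p = 0.635).

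Its paralog SKAP2 divided the lines by class. SKAP2 held 76.8 and 82.7 CPM in H9 controls, 20.5, 20.9 and 17.7 in MyLa and 17.5 and 17.4 in Mac1, and had 0 counts in every library of the 4 T-ALL lines. It rose in Mac1 to 28.4 and 26.1 CPM (log2 fold change 0.65, SE 0.113, adjusted p = 0.00182), where SKAP1 fell. MOLT4 had counts of neither gene.

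RASGRP1 (ENSG00000172575, chromosome 15, 38488103 to 38565575, minus strand), the Ras activator, responded in opposite directions in different lines. It fell in MOLT4 from 48.5 and 47.7 CPM to 16.6 and 19.5 CPM, a log2 fold change of -1.41 (SE 0.0999, adjusted p = 1.12e-11). It rose in MyLa from 4.51, 4.78 and 4.56 CPM to 7.12, 7.72 and 7.09 CPM (log2 fold change 0.66, SE 0.0975, adjusted p = 9.56e-05). The arms did not overlap in either line. In CCRF-CEM it was higher, at 5.38, 5.99 and 5.48 CPM against 4.21, 4.74 and 4.43 CPM (log2 fold change 0.34, SE 0.1, adjusted p = 0.0298). That call was lost without control 1 (adjusted p = 0.101), control 3 (0.0789) or knockdown 2 (0.143), and in 5 other settings (0.0691 to 0.258). The SUP-T1 libraries labelled knockdown held 10.4, 10.1 and 11.6 CPM against 5.57, 5.19 and 5.56 CPM (log2 difference 0.98, SE 0.0912, adjusted p = 3.79e-09).

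The order of RASGRP1 levels was unlike that of the kinases. Mac1 was highest, with 71.6 and 76.1 CPM in controls, before MOLT4 (48.1 on average), H9 (39.8) and THP6 (16.3), and SUP-T1 (5.44), MyLa (4.62) and CCRF-CEM (4.46) were lowest, the last 2 overlapping. Exons of RASGRP1 share 105 bases with AC116158.1 on the other strand. Among its relatives, RASGRP2 rose in MyLa from 7.37 to 17.6 CPM (log2 fold change 1.26, SE 0.0975, adjusted p = 7.11e-10) and fell in MOLT4 from 13.2 to 8.81 CPM (-0.58, SE 0.117, adjusted p = 0.000575), the same signs as RASGRP1 there. RASGRP2 fell in CCRF-CEM, from 38.0 to 26.5 CPM, where RASGRP1 was higher. RASGRP3 fell in H9 from 18.8 to 8.52 CPM and in Mac1 from 2.55 to 1.05 CPM and rose in MOLT4 from 0.532 to 1.66 CPM. RASGRP4, at most 3.03 CPM in any control mean, fell in Mac1 to 0.871 CPM. Of the 14 tested relatives of the 9 genes, 5 were higher and 2 lower in Mac1 (median log2 fold change 0.46), where 7.89% of all genes were called, and 3 were higher and 1 lower in MOLT4 (median -0.24), where 19.2% were. In the same Mac1 libraries the sum of 5 myeloid markers went from 38.0 to 43.2 CPM in controls to 60.2 to 63.7 CPM after knockdown, with MPO at 0, and its part in these values was not tested.

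THEMIS (ENSG00000172673, chromosome 6, 127708072 to 127918631, minus strand) was called in THP6 and in no other line in the edgeR fit of all libraries. Controls held 16.1, 15.7 and 14.7 CPM and the 2 knockdown libraries 30.0 and 135 CPM, a log2 fold change of 2.41 (SE 0.283, adjusted p = 5.8e-06). Both knockdown libraries were above every control, and knockdown 2 was far above knockdown 1. Without knockdown 2 the log2 fold change was 0.95 (SE 0.132, adjusted p = 0.000117). In THP6 fitted alone the adjusted p was 0.753. Control levels elsewhere ran from 99.5 CPM in SUP-T1 and 45.2 in MyLa through 20.2 in Mac1, 15.3 in CCRF-CEM and 9.35 in MOLT4 to 2.41 CPM in H9, and CCRF-CEM overlapped THP6. In SUP-T1 the libraries labelled knockdown held 69.0, 72.7 and 66.7 CPM against 108, 96.1 and 94.8 CPM (log2 difference -0.52, SE 0.245, adjusted p = 0.168), and in MyLa the values were 37.3, 35.9 and 33.5 against 47.8, 47.4 and 40.3 CPM (-0.35, SE 0.252, adjusted p = 0.704). The arms did not overlap in either line. Fitted alone, THEMIS was called lower in SUP-T1 (adjusted p = 0.000782) and MyLa (0.0185), and without the filter on low counts in SUP-T1 (3.46e-05). Its paralog THEMIS2 rose in Mac1 from 5.55 to 12.3 CPM (log2 fold change 1.14, SE 0.25, adjusted p = 0.00345).

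SH2D1A (ENSG00000183918, chromosome X, 124227868 to 124373197, plus strand), the SAP gene, had the largest difference of the 9 genes in SUP-T1. Libraries labelled control held 40.3, 37.4 and 34.1 CPM and those labelled knockdown 182, 196 and 138 CPM. The log2 difference was 2.21 (SE 0.182, adjusted p = 3.36e-10). In MOLT4, where it was lowest, SH2D1A fell from 6.23 and 5.33 CPM to 2.63 and 2.68 CPM (log2 fold change -1.12, SE 0.303, adjusted p = 0.00818), on 334 and 154 counts. The MOLT4 call was lost without control 1 (adjusted p = 0.083), knockdown 1 (0.0693) or knockdown 2 (0.0563) and with limma-voom (0.147). In both lines SH2D1A moved in the same direction as GATA3, and LCK and LAT in the other. In THP6 the 2 knockdown libraries held 168 and 74.4 CPM against 188, 181 and 173 CPM (log2 fold change -0.58, SE 0.196, adjusted p = 0.0692). That difference was called in 4 of 12 alternatives, among them DESeq2 (adjusted p = 0.0391) and limma-voom (0.029), and without knockdown 2 the adjusted p was 0.931. Control means ran from 181 CPM in THP6 through 65.5 in CCRF-CEM, 63.1 in MyLa and 58.2 in H9, which overlapped in turn, to 37.3 in SUP-T1, 30.8 in Mac1 and 5.78 in MOLT4. Exons of SH2D1A share 89 bases with TEX13D on the same strand. SH2D1B, its natural killer cell relative, had counts in Mac1 alone, at 0.409 CPM in controls.

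**Figure D3:**
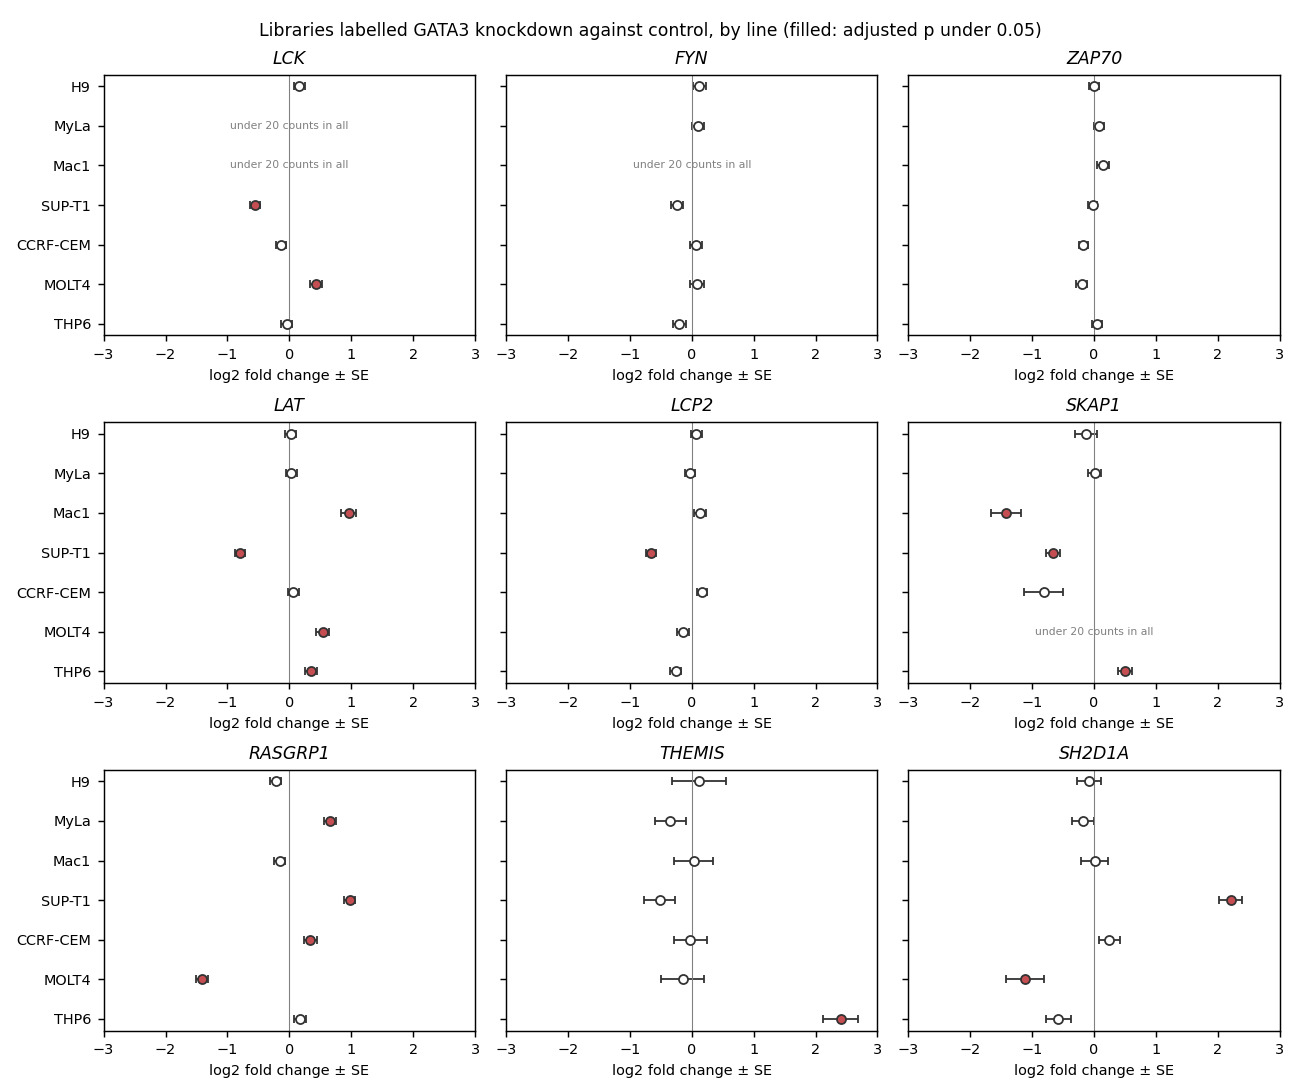
Points give the log2 fold change of libraries labelled knockdown over control in each line with bars of 1 standard error, filled where the adjusted p was under 0.05. LAT lies to the right in Mac1, MOLT4 and THP6 and to the left in SUP-T1, RASGRP1 lies far left in MOLT4 (-1.41), and pairs with under 20 counts in all are not drawn.

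Of the 63 pairs of a gene and a line, 17 (27.0%) were called, 10 higher and 7 lower, and 11 of the 54 pairs outside SUP-T1. By line the counts of called genes, beside the share of all 21138 tested genes called, were 0 of 9 for H9 (1.82%), 1 for MyLa (1.88%) and 2 for Mac1 (7.89%). Among the T-ALL lines they were 6 for SUP-T1 (16.7%), 1 for CCRF-CEM (8.44%), 4 for MOLT4 (19.2%) and 3 for THP6 (7.4%). The median log2 fold change of the 9 genes was -0.52 in SUP-T1, -0.14 in MOLT4 and between 0.01 and 0.07 in the other lines, against 0.00 over all genes in each line. In H9, 1 gene, RASGRP1, had an unadjusted p under 0.05 in edgeR, and DESeq2 also called 0 there. In MyLa the fit with replicate number as a block, where numbers pair the libraries, called 243 genes instead of 397 and again 1 of the 9, RASGRP1 (adjusted p = 0.00363). The MyLa values given by gene above come from fits without this block. Of the 17 calls, 12 went opposite to GATA3 and 5 in its direction. Over all genes, calls higher and lower were 180 and 204 in H9, 215 and 182 in MyLa and 1171 and 497 in Mac1. They were 1720 and 1812 in SUP-T1, 635 and 1148 in CCRF-CEM, 1878 and 2176 in MOLT4 and 1175 and 389 in THP6. Most calls over all genes thus also went opposite to GATA3 in MyLa, Mac1, SUP-T1 and THP6, but not in the other lines. Whether the 9 genes differ from this was not tested. Of the 17 calls, 12 held under every alternative tried. The 5 that did not were LAT, SKAP1 and THEMIS in THP6, RASGRP1 in CCRF-CEM and SH2D1A in MOLT4. In THP6, 1 of the 9 genes was called without knockdown 2 and 7 without knockdown 1.

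Whether the responses differed among lines was tested directly over the 6 lines other than SUP-T1, as equality of their log2 fold changes. The test was passed by 7 of the 9 genes and by 25.0% of all tested genes. The adjusted p was 2.01e-10 for RASGRP1, 4.24e-05 for THEMIS, 9.5e-05 for LAT, 0.000129 for SKAP1, 0.00707 for LCK, 0.03 for SH2D1A and 0.0427 for LCP2. FYN (0.129) and ZAP70 (0.104) did not pass. The LCK test includes MyLa and Mac1, and the SKAP1 test MOLT4, where those genes lie at the floor. LCP2 lost its call in the fit without the filter on low counts (0.157), and SH2D1A without MOLT4 control 1 (0.0834), knockdown 1 (0.077) or knockdown 2 (0.0686).

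With each line as 1 replicate (counts summed per line and arm), 0 of the 9 genes had a mean response past the threshold in edgeR, where 0.00435% of genes did. None had an unadjusted p under 0.05, DESeq2 called 0, and the mean log2 fold changes ran from -0.32 for SKAP1 (SE 0.195) to 0.17 for THEMIS (SE 0.276). GATA3 itself did not pass this edgeR test (mean -0.76, SE 0.307, unadjusted p = 0.0289), so it could miss a shared response. Without SUP-T1, GATA3 passed (mean -1.11, SE 0.0892, adjusted p = 0.00185) and 0 of the 9 genes did. There LAT alone had an unadjusted p under 0.05, with a mean of 0.30 (SE 0.116, unadjusted p = 0.0247, adjusted p = 0.798). Between the 3 CTCL and 4 T-ALL lines at baseline, 0 of 9 passed in edgeR, where 0.28% of genes did. None had an unadjusted p under 0.05 and DESeq2 called 0. The log2 differences (CTCL minus T-ALL) were -2.43 for LCK (SE 2.58) and -1.92 for LAT (SE 0.956, adjusted p = 0.439), the largest negative ones, and 1.12 for RASGRP1 (SE 1.07). Each line was left out in turn, and the result depended on H9. In the edgeR fit without it, 338 of 19883 genes passed between MyLa and Mac1 and the 4 T-ALL lines, against 52 of 18565 genes with it. LCK (adjusted p = 0.0251) and LAT (adjusted p = 0.0426, log2 difference -3.96, SE 0.612) were among those 338, both lower in MyLa and Mac1. The LCK estimate there, -15.7, rests on counts at the floor in MyLa and Mac1. With any other line left out, 0 of the 9 passed. H9 controls, at 266 CPM of LCK, lay within the T-ALL range, and at 123 CPM of LAT just below it.

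Among 14 genes of the receptor and its coreceptors, MOLT4 had the most calls, as it did over all genes (19.2%). There 9 were higher after knockdown and 1, TRBC2, was lower, with a median log2 fold change of 0.84 against 0.00 over all genes. CD3D rose from 282 to 505 CPM, CD3G from 183 to 337 CPM and CD8A, the coreceptor chain that carries LCK, from 34.6 to 64.3 CPM. In the same MOLT4 libraries the sum of 5 fibroblast markers went from 14.5 to 15.0 CPM in controls to 56.8 to 57.1 CPM, with PDGFRB called higher and COL1A2, DCN and LUM at 0, and its part in these results was not tested. In SUP-T1, 5 were lower and 2 higher in the libraries labelled knockdown (median -0.22): the receptor alpha chain gene TRAC went from 65.4 to 14.1 CPM, while the zeta chain gene CD247 went from 77.0 to 167 CPM. The costimulatory receptor gene CD28 rose in H9 from 4.19 to 17.3 CPM and fell in CCRF-CEM from 2.87 to 1.16 CPM. CD28 was also called higher in MOLT4. Further calls of the genes named here were CD8A higher in SUP-T1 and lower in CCRF-CEM, and TRAC higher in H9, Mac1 and MOLT4. CD247 was also called higher in Mac1 and THP6, CD3D lower in SUP-T1 and TRBC2 higher in CCRF-CEM. Counts were 2 higher and 0 lower in H9, MyLa and THP6, 3 and 0 in Mac1 and 2 and 3 in CCRF-CEM.

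Of 17 genes that set kinase activity (phosphatases, the kinase CSK and its anchors), the counts higher and lower were 1 and 0 in H9 and MyLa, 5 and 0 in Mac1, 2 and 3 in SUP-T1, 4 and 4 in MOLT4, 3 and 5 in CCRF-CEM and 3 and 0 in THP6. Medians of this list lay between -0.15 and 0.18. The shares of all genes called, from 1.82% in H9 to 19.2% in MOLT4, and their split by direction are given above. They are the background for the counts of this list, of the receptor list and of the lists that follow. LIME1, a transmembrane adaptor that binds LCK and CSK, was higher in the 3 CTCL lines (20.1 to 28.6 CPM in H9, 11.9 to 15.5 in MyLa, 18.9 to 27.7 in Mac1) and lower in CCRF-CEM (59.2 to 39.1) and MOLT4 (68.3 to 45.0). PTPRC, which encodes the activating phosphatase CD45, rose in Mac1 from 186 to 328 CPM and in CCRF-CEM from 196 to 300 CPM and was lower in the SUP-T1 libraries labelled knockdown, from 243 to 191 CPM. SIT1, a transmembrane adaptor, was higher in MOLT4 (57.5 to 93.8 CPM) and THP6 (102 to 171 CPM). UBASH3B, a phosphatase that dampens ZAP70, was lower in MOLT4 (60.3 to 45.5 CPM) and higher in CCRF-CEM (134 to 166 CPM). In the SUP-T1 libraries labelled knockdown, SIT1 was called lower and UBASH3B higher.

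In the list of 24 partners of LAT and SLP-76, TESPA1 and DGKA were called in the most lines. TESPA1, a protein of thymocyte receptor signalling, fell in THP6 (82.8 to 53.3 CPM), H9 (44.2 to 26.9), CCRF-CEM (42.7 to 27.6) and MOLT4 (40.3 to 28.7), with log2 fold changes from -0.72 to -0.49. In SUP-T1 it was higher in the libraries labelled knockdown (29.4 to 39.2 CPM, log2 difference 0.41, SE 0.0639, adjusted p = 1.92e-05), so that TESPA1 moved in the direction of GATA3 in 5 lines. DGKA, the diacylglycerol kinase that removes the lipid RASGRP1 needs, rose in H9 (96.9 to 136 CPM), MyLa (51.8 to 66.0) and CCRF-CEM (29.1 to 41.5) and was lower in SUP-T1 (126 to 90.2). FYB1, an adaptor bound by SLP-76 and SKAP1, fell in MOLT4 from 6.29 to 1.04 CPM (log2 fold change -2.60, SE 0.269, adjusted p = 2.28e-08), and GRAP, a relative of GRB2, rose there from 56.4 to 83.8 CPM. Over the list, 2 were higher and 1 lower in H9 and Mac1, 1 and 1 in MyLa, 2 and 4 in SUP-T1 and MOLT4, 1 and 3 in THP6 and 2 and 8 in CCRF-CEM, with medians between -0.12 and 0.15. Without THP6 knockdown 2, TESPA1 was the single call of the pathway lists that remained in THP6.

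**Figure D4:**
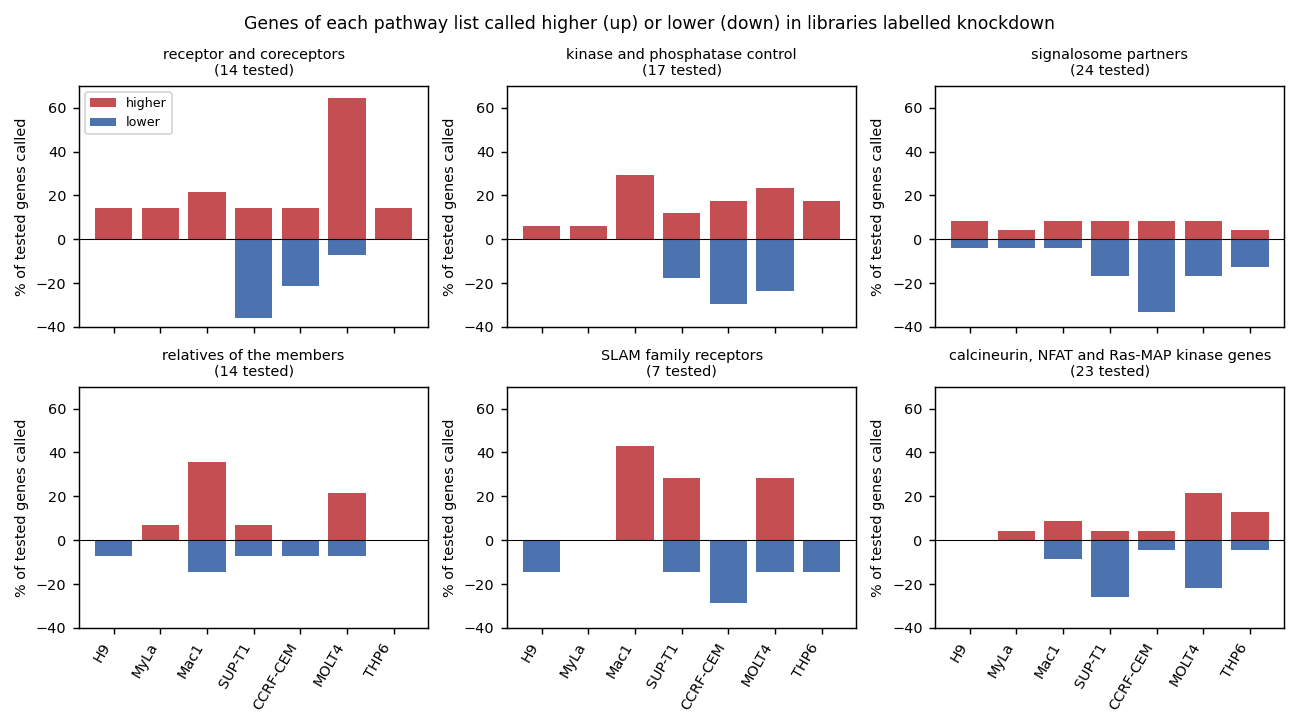
Bars give the percent of tested genes of 6 pathway lists called higher (above 0) or lower (below 0) in libraries labelled knockdown, by line. The receptor and coreceptor list in MOLT4 has the tallest bar, 9 of 14, and the partners of LAT and SLP-76 have the most lower calls in CCRF-CEM, 8 of 24.

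The 7 SLAM family receptors, whose tails bind SAP, had 3 higher calls in Mac1, 2 higher and 1 lower in SUP-T1 and in MOLT4, 2 lower in CCRF-CEM and 1 lower in H9 and in THP6. Its median log2 fold change was 0.87 in Mac1, 0.50 in MOLT4 and -0.44 in SUP-T1. CD84 paralleled SH2D1A in sign, lower in MOLT4 (15.1 to 7.66 CPM) and, in SUP-T1, higher in libraries labelled knockdown (3.01 to 6.37 CPM), and it also fell in THP6 (26.4 to 17.0 CPM). CD48 was called in 5 lines, lower in H9 (114 to 86.7 CPM) and CCRF-CEM (17.6 to 8.70) and higher in Mac1 (99.1 to 137), SUP-T1 (2.02 to 2.80) and MOLT4 (1.70 to 2.85). SLAMF1 rose in Mac1 (95.1 to 126 CPM) and was called lower in the SUP-T1 libraries labelled knockdown, and LY9 fell in CCRF-CEM (5.11 to 1.98 CPM).

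Downstream, 23 genes of calcineurin, NFAT and the Ras-MAP kinase cascade had their most calls in MOLT4 (5 higher, 5 lower) and SUP-T1 (1 higher, 6 lower), the lines with the most calls over all genes (19.2% and 16.7%), with medians between -0.14 and 0.09. HRAS rose in MOLT4 (45.0 to 74.0 CPM) and fell in Mac1 (85.2 to 64.0 CPM), and SPRY2, an inhibitor of the cascade, fell in Mac1 (3.20 to 1.10 CPM) and MOLT4 (24.1 to 19.3 CPM). The Ras GTPase-activating gene RASAL3 was higher in MOLT4 (40.2 to 52.2 CPM) and THP6 (71.6 to 104 CPM). In the SUP-T1 libraries labelled knockdown, RASAL3 was called lower and HRAS higher.

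The genes most like each of the 9 were ranked by Pearson's r of log2(CPM + 0.5) over the 14 group means, among 11617 genes with a mean of at least 5 CPM. The 14 means come from 7 lines, 2 from each, so r describes mainly the line. The nearest genes, at most 2 for each, were ZNF551 (r = 0.995) and ZNF773 (0.993) for LCK, DTNB and TSC22D1 (both 0.981) for FYN, DCAKD (0.959) and SDC3 (0.945) for ZAP70 and, for LAT, DBP (0.988). For LCP2 they were OSBPL3 (0.957) and FBXL4 (0.924), for RASGRP1 BAG2 (0.92) and STN1 (0.909), for THEMIS AC016876.1 (0.92), for SKAP1 MAP3K12 (0.938) and FOXD2 (0.895) and for SH2D1A VPS37B (0.912). Among the 9 genes themselves the highest r were those of LAT with LCK (0.93) and with FYN (0.858), and LCK with FYN (0.808). Each of these 3 genes had lower control means in Mac1 and MyLa than in any other line. RASGRP1 had its lowest r with THEMIS (-0.48), and SKAP1 with SH2D1A had 0.637.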

How the data were processed

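Poly(A) RNA libraries were prepared with NEBNext Poly(A) selection and an xGen kit, per the labels' protocols. The authors deposited 1 table of expected counts per gene. The submitters' processing notes name cutadapt 2.3, STAR 2.7.8a, RSEM 1.3.3 and GRCh38/hg38. For the annotation release and strand setting: not given in the sources used here. All values were whole. Of the identifiers, 96.5% were found in GENCODE 29, from which positions and exon lengths were taken.

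Groups came from the labels. The 36 libraries were fitted together as 14 groups in edgeR 4.0.16 (R 4.3.3; TMM scaling, filterByExpr, quasi-likelihood test), with 1 contrast per line, Benjamini-Hochberg adjustment over all tested genes and a threshold of 0.05. An F test compared log2 fold changes over 6 lines. Counts summed per line and arm gave the mean response and the class comparison. Alternatives used DESeq2 1.42.0, limma 3.58.1 (voom), other scaling and filters, each line alone, a replicate block, and each library or line left out. In simulated data of 20715 genes, 1.5-fold changes were recovered in 45% (Mac1) to 78% (SUP-T1) of cases. For 2-fold changes the range was 86% (MyLa) to 95% (MOLT4). The simulation gave every gene and library the same spread beyond counting noise and changed only genes averaging at least 5 CPM. Recovery for rarer genes, or with more scatter as between the THP6 knockdown libraries, was not tested.

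A floor of 3 counts per library was used, which covers counting error only. Replicates correlated at 0.981 or more and scattered 3.67 to 154 times more than counting noise, so none was counted as a duplicate. Same-numbered libraries of MyLa deviated together (residual r from 0.254 to 0.301, all 3 pairs above 0.1). Those of H9 did too (0.162 and 0.364), where knockdown 3 had no control of its number. The main fit ignored such pairing in every line, MyLa included, and the replicate block was an alternative fit. This pairing comes from the data and not from the labels. The members and lists were chosen with earlier results of these data known. Besides the 9 genes and GATA3, 12 relatives were named whatever their values, with up to 4 genes per pathway list, ranked by the number of lines called and then by the lowest adjusted p, and the 2 genes most like each member. Some genes that this rule names are not reported here. FGR, BLK, CD3D, CD3G and TRBC2 were named after their values were seen. Figures used Python 3.11.15 and matplotlib 3.10.9.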

Additional observations from a re-analysis of the deposited data

Results flagged for a closer look

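For 7 of the 9 genes the response to the GATA3 hairpin differed among the 6 lines other than SUP-T1, by edgeR's F test of equal log2 fold changes with Benjamini-Hochberg adjustment. The same test was passed by 25.0% of all tested genes. The adjusted p was 2.01e-10 for RASGRP1, which fell in MOLT4 and rose in MyLa. It was 4.24e-05 for THEMIS, called in THP6, whose knockdown libraries held 30.0 and 135 CPM, and 9.5e-05 for LAT, higher in Mac1, MOLT4 and THP6. For SKAP1, lower in Mac1 and higher in THP6, it was 0.000129. For LCK, higher in MOLT4, it was 0.00707. The values for SH2D1A (0.03) and LCP2 (0.0427) lay nearest the threshold. LCP2 lost its call in 8 left-out fits (adjusted p from 0.0514 to 0.0634), and SH2D1A without MOLT4 control 1 (0.0834), knockdown 1 (0.077) or knockdown 2 (0.0686). No group of 4 or more libraries existed in which a single library could be tested as an outlier.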

How the results depend on the processing

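No call among the 17 changed direction under any alternative run. With the replicate block, 14 of 17 calls held (LAT and SKAP1 in THP6 and RASGRP1 in CCRF-CEM were lost), and the genes called were 220 in H9, 243 in MyLa and 472 in THP6. Same-numbered libraries deviated together in H9 as well as in MyLa (residual r 0.162 and 0.364 in H9), and with the block 0 of the 9 genes were called in H9. Outside MyLa and H9, no line had all its pairs above a residual r of 0.1. Limma-voom called 649 genes in H9 and 5 members in THP6, and DESeq2 650 genes in H9, 612 in MyLa, 1479 between classes and 5 members in THP6. Each line fitted alone called 1374 genes and 2 members in MyLa, 2752 genes in Mac1, 6797 in MOLT4 and 0 genes and 0 members in THP6. In CCRF-CEM, 0 members were called without the filter, with the block, with limma-voom, alone and with DESeq2. Without the filter 48 genes had a mean response.

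Leaving out 1 library, the genes called ran from 108 to 316 in H9, 196 to 249 in MyLa, 562 to 1033 in Mac1, 2572 to 2963 in SUP-T1, 1083 to 1547 in CCRF-CEM, 2260 to 2775 in MOLT4 and 74 to 7900 in THP6, and from 4007 to 10737 for the difference among lines. Members called ran from 0 to 1 in CCRF-CEM, 3 to 4 in MOLT4, 1 to 7 in THP6 and 5 to 9 for the difference among lines. The difference test of FYN passed with all 7 lines (adjusted p = 0.0432) and without THP6 knockdown 1 (0.00112) or Mac1 control 1 (0.0342). That of ZAP70 passed with DESeq2 (0.0355) and without THP6 knockdown 1 (0.0374) or SUP-T1 knockdown 3 (0.0469). LCP2 lost its call in 8 left-out fits (0.0514 to 0.0634) and with DESeq2 size factors (0.0567). Genes with a mean response numbered 0 without H9, MyLa, CCRF-CEM or THP6 and 5 without SUP-T1. Genes differing between classes numbered 338 without H9 (2 members), 14 without MyLa, 12 without Mac1, 30 without SUP-T1, 20 without CCRF-CEM, 22 without MOLT4 and 15 without THP6. On unscaled CPM, 43 of 126 member levels moved by more than 1 SD (ratio 0.812 to 1.11). Fits with fewer libraries have less power, and other causes were not tested.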
